A study of Mus musculus with 5 samples.

Results

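The Hox genes encode homeodomain transcription factors that give cells along the body axis their position. In the mouse they stand in 4 clusters, Hoxa, Hoxb, Hoxc and Hoxd, and each gene belongs to 1 of 13 paralogue groups, numbered from the 3' end of the cluster, where the genes switched on first and most anteriorly lie, to the 5' end, where the late posterior genes lie. In undifferentiated embryonic stem cells the clusters are known as large CpG-rich domains that are mostly silent and covered by Polycomb complexes. The members here were the 39 protein-coding genes of the GENCODE M21 annotation, build mm10, whose symbols begin with Hoxa, Hoxb, Hoxc or Hoxd and end in a number, of 21938 protein-coding genes in all. They comprised 11 Hoxa genes between chr6:52155590 and 52260880 on the minus strand, 10 Hoxb genes between chr11:96194316 and 96368256, 9 Hoxc genes between chr15:102921103 and 103036852 and 9 Hoxd genes between chr2:74668310 and 74765142, the last 3 clusters on the plus strand.

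The study compared chromatin sites of the E3 ubiquitin ligase RNF12 (gene Rlim), of a catalytically inactive RNF12 and of its substrate, the transcription factor REX1, whose occupancy had been determined in earlier work, by ChIP-seq, that is, immunoprecipitation of cross-linked chromatin followed by sequencing, in undifferentiated female mouse embryonic stem cells of the 129/Sv-Cast/Ei strain. REX1 was FLAG-V5-REX1 in wild-type cells. RNF12 WT and RNF12(H569A,C572A), whose substitutions lie in the RING domain, were FLAG-V5 fusions in Rlim+/- cells, stably expressed from a pCAG vector, so that levels did not follow the endogenous promoter and an endogenous Rlim copy was still present. The RNF12 cells had received the proteasome inhibitor MG132 (15 uM, 3 h) and were fixed with 2 mM DSG and 1% formaldehyde, and the same treatment was not stated for REX1. All 3 were precipitated through the V5 tag, and 2 libraries of wild-type cells, titled as inputs, served as controls. Each peak list came from 1 library, so no value below has a replicate, no difference between the 3 lists can be told apart from a difference between libraries, and the 95% Wilson intervals cover counting error only. Neighbouring genes and peaks are also not independent of each other.

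The REX1 list held 96050 peaks. The RNF12 WT list held 97602, and that of RNF12(H569A,C572A), called the mutant list from here on, 98124. A peak was placed by its summit, the base of highest signal, and counted at the Hox genes where the summit lay in a gene or within 5 kb of it, a span of 451.7 kb in all. By this rule 161 REX1 peaks, 180 RNF12 WT peaks and 149 mutant peaks lay at the Hox genes. That was 3.56, 3.99 and 3.30 peaks per 10 kb, against 0.573, 0.614 and 0.490 per 10 kb over all protein-coding genes with the same margin, or 6.21, 6.50 and 6.73 times as many. The peaks covered 7.92%, 6.67% and 7.43% of the span.

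Hoxa was the densest cluster in all 3 lists. It held 53 REX1, 57 RNF12 WT and 44 mutant peaks, which is 4.67, 5.03 and 3.88 per 10 kb. Hoxd followed for REX1 and RNF12 WT with 40 and 48 peaks (3.91 and 4.69 per 10 kb), and held 35 mutant peaks (3.42 per 10 kb). Hoxb, whose group 13 gene lies far from the rest, held 31, 39 and 41 peaks (2.67, 3.36 and 3.53 per 10 kb) and Hoxc 37, 36 and 29 (3.09, 3.00 and 2.42 per 10 kb). The 4 clusters thus differed less from each other than each did from the 0.490 to 0.614 peaks per 10 kb over all genes.

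**Figure D1:**
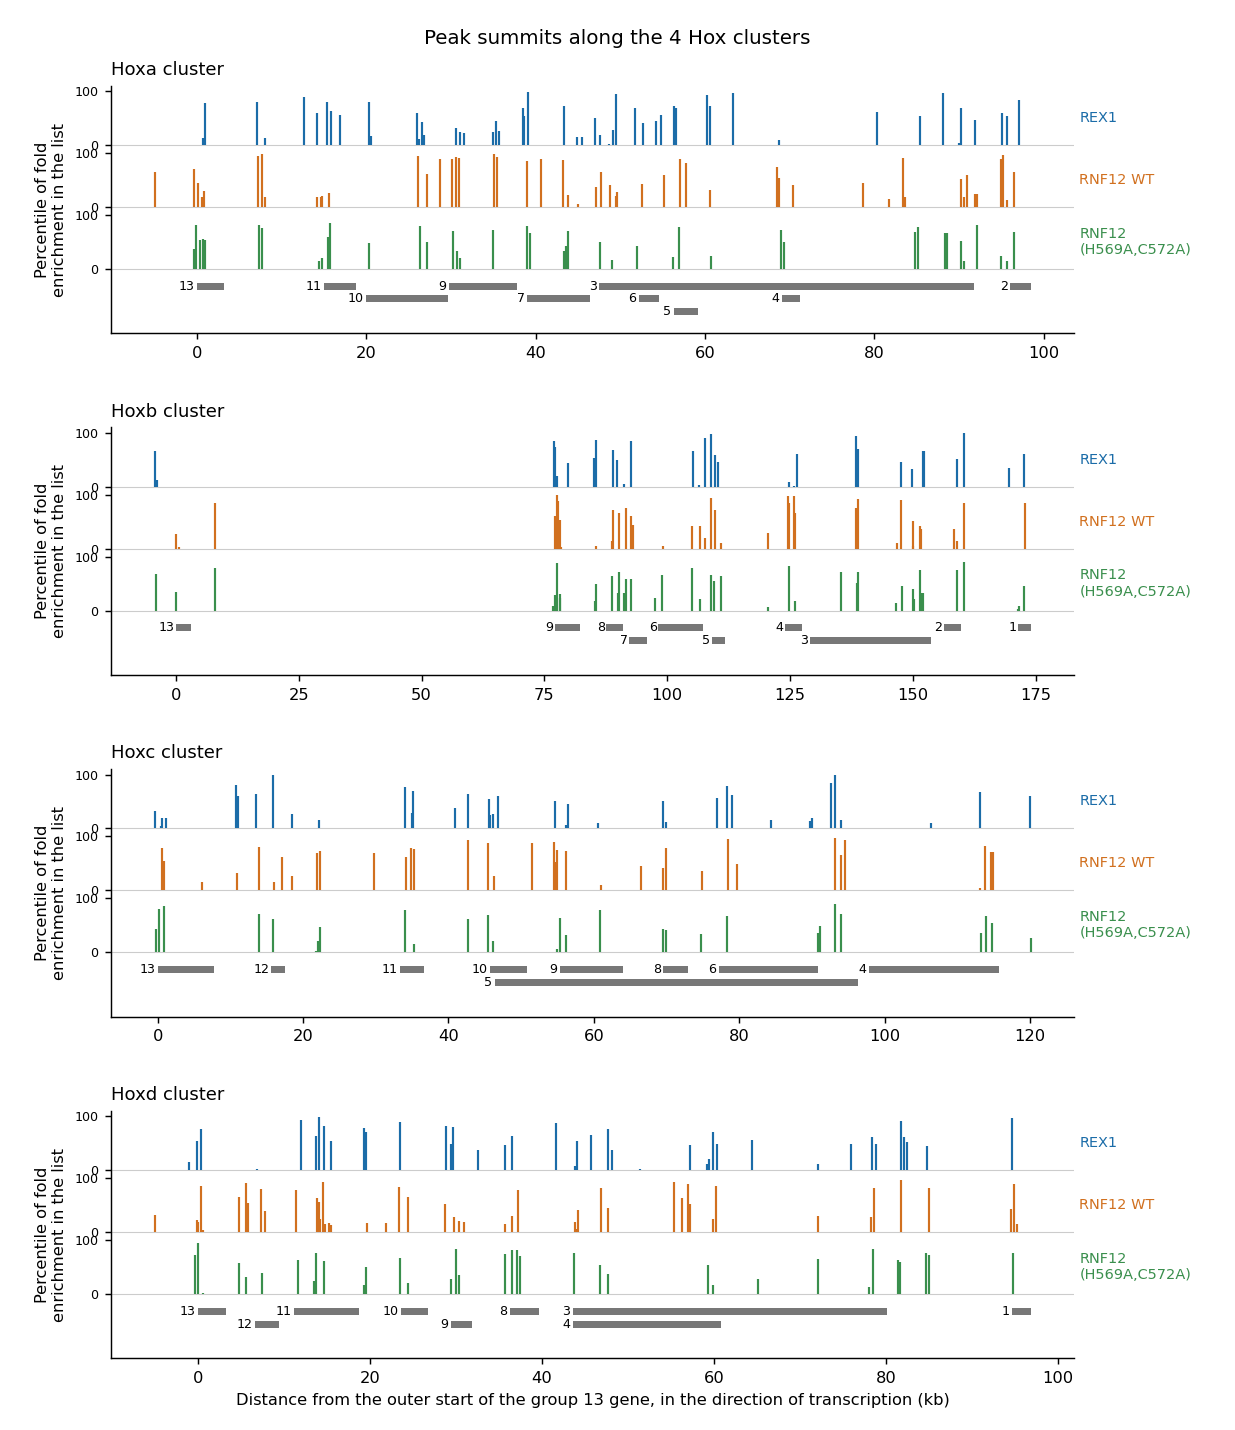
Summits at the Hox genes in the 3 lists, drawn against the distance in kb from the outer start of the group 13 gene of each cluster in the direction of transcription. The height of a line is the percentile of the peak's fold enrichment within its own list, grey bars are the genes with their paralogue numbers, 1 gene and the peaks nearest to it are left out, and peaks more than 5 kb from every Hox gene, as in the gap beside Hoxb13, are not shown. Summits stand along all 4 clusters in each list.

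The peaks at the Hox genes were many but of ordinary fold enrichment. Fold enrichment, the ratio of ChIP signal to the local background that the peak caller gives, had a median of 4.66 among the REX1 peaks there, 4.80 among those of RNF12 WT and 7.26 among the mutant peaks, at the 54.8th, 54.2nd and 54.6th percentile of each list. The highest values at the Hox genes were 13.9, 9.23 and 18.3, where the highest of the whole lists were 45.9, 20.7 and 68.1. Values of different lists are not on 1 scale and are compared only within a list. Ranked by -log10 q, the 20000 highest peaks of each list included 29 of the 161 REX1 peaks at the Hox genes. They included 51 of the 180 RNF12 WT peaks and only 6 of the 149 mutant peaks. The whole lists held 96050, 97602 and 98124 peaks.

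Sequence at the strongest REX1 peaks is shown first because the strongest sites shared a short word. The letters ATGGCNGC, searched on both strands within 50 bp of the summit, were known from earlier results of these data. They hold the ATGG core of the sites bound by YY1, the zinc-finger factor of the family to which REX1 belongs. Of the 10 REX1 peaks of highest fold enrichment at the Hox genes, 7 held the word, and 5 of the first 6 did. Of the first 20 it was 8, and of all REX1 peaks at any strength 8.28%. The share among equally strong REX1 peaks elsewhere was not computed. The stretches below are from GRCm38, written 5' to 3' on the strand on which the word reads ATGGCNGC, with the word in capitals. They are 151 bases centred on the summit, or 30 bases centred on the word where the longer stretch would have run into annotated untranslated exon.
Hoxb3os start, 3031 bp downstream of the nearest Hoxb2 TSS, chr11:96354587-96354737, minus strand: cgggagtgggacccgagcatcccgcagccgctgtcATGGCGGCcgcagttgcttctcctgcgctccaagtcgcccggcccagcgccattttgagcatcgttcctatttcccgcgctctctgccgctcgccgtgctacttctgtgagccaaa
Hoxa7, 78 bp downstream of a TSS, chr6:52221762-52221791, plus strand: ggcggccggagATGGCGGCgagaaagcctc
Hoxb5, 125 bp upstream of a TSS, chr11:96303136-96303286, minus strand: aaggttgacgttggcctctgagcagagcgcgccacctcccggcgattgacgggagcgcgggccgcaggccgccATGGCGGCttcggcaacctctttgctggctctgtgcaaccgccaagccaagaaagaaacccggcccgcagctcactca
Hoxd11, 93 bp downstream of a TSS, chr2:74682376-74682405, minus strand: caaagtcgttcATGGCTGCgcggcgtgcac
Hoxa3, in an untranslated exon, chr6:52172740-52172769, plus strand: ctccgccgccaATGGCCGCcgcgcgcaaac
Hoxa3, in an intron, chr6:52211363-52211513, minus strand: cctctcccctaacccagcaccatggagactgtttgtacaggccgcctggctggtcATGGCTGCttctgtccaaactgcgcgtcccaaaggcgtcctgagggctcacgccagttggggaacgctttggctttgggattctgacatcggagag
Of the 7, 6 are printed, and in these 6 the centre of the word lay between 0 and 37 bp from the summit. No instance of the other word searched, AAGATGGC, lay within 100 bp of any REX1 summit at the Hox genes.

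The strongest REX1 peak of all at the Hox genes was chr11:96354436-96354765, where fold enrichment reached 13.9 (-log10 q 53.6). Its summit lay 29 bp from the start of Hoxb3os, a non-coding gene antisense to Hoxb3, and 3031 bp from the nearest Hoxb2 TSS, outside that gene. It overlapped an RNF12 WT peak of fold enrichment 6.16, at the 85.2nd percentile, whose summit was 15 bp away, and a mutant peak of 16.1, at the 90.8th percentile, 12 bp away. That mutant peak was the second highest of its list at the Hox genes, so 1 site beside a non-coding start ranked near the top for REX1 and for the mutant.

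The next was chr6:52221440-52221991, over a TSS of Hoxa7, with a REX1 fold enrichment of 13. It overlapped an RNF12 WT peak of 6.17, with its summit 107 bp away, and 2 mutant peaks, the higher at 11.6 and 103 bp away. The REX1 peak in the coding part of Hoxc5 had a fold enrichment of 12.5. Its RNF12 WT partner reached 7.97, the highest of the Hoxc cluster in that list, with the summit 8 bp away, and its mutant partner 15.3, also the highest of its cluster, 41 bp away. This was the 1 peak that led its cluster in all 3 lists.

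In Hoxc12, where no instance of the word lay within 50 bp of the summit, the REX1 peak chr15:102936749-102937264 had a fold enrichment of 12.2 and stood at the 98.4th percentile. The overlapping RNF12 WT peak stood only at the 16.3rd percentile (3.46) and the mutant peak at the 61.6th (7.98). The REX1 peak 125 bp upstream of Hoxb5, chr11:96303123-96303344, had a fold enrichment of 11.6, with RNF12 WT and mutant summits 12 and 28 bp away at 7.26 and 8.43. The highest REX1 peak of Hoxd, chr2:74682267-74682615, lay 93 bp inside Hoxd11 (11.5). There an RNF12 WT summit lay 54 bp away (4.84), but the summit of the overlapping mutant peak (7.90) lay 612 bp away, so REX1 and mutant peaks there shared bases and not a summit. High REX1 percentiles therefore went with RNF12 WT percentiles from 16.3 to 97.0 at these 6 sites.

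Below these, the REX1 peaks found in all 3 lists and ranked by REX1 fold enrichment included those at Hoxd1 (10.7), 4744 bp downstream of a Hoxb3 TSS (8.13), 4382 bp downstream of a Hoxd3 TSS (7.75), 104 bp upstream of Hoxd10 (6.99) and 2155 bp upstream of Hoxb8 (6.59). The last stood at the 5.6th percentile for RNF12 WT.

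RNF12 WT ranked the sites differently. Its strongest peak at the Hox genes was chr11:96271602-96271985, 350 bp inside Hoxb9 in coding sequence, with a fold enrichment of 9.23. The second lay 404 bp from a TSS in coding sequence of Hoxa9, chr6:52225696-52226200, at 9.08. The third, chr6:52253086-52253203, at 8.20, lay between Hoxa11 and Hoxa13 outside any annotated gene. The highest RNF12 WT peak of Hoxd, chr2:74749980-74750265 at 7.84, lay 4370 bp from a Hoxd3 TSS in an exon of a non-coding transcript.

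For RNF12(H569A,C572A) the strongest peak was chr2:74668145-74668693, with its summit 26 bp upstream of Hoxd13, the gene of the latest and most distal digit domain, at 18.3. The peaks at the Hoxb3os start (16.1) and in Hoxc5 (15.3) followed, and the highest of Hoxa was a coding peak of Hoxa11, chr6:52244969-52245280, at 13.4. Each of these 4 was shared with both other lists.

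At the level of genes, 37 of the 39 Hox genes had a REX1 summit within 1 kb of a transcription start site (94.9%, interval 83.1 to 98.6%), 38 an RNF12 WT summit (97.4%, 86.8 to 99.5%) and 37 a mutant summit (94.9%, 83.1 to 98.6%). Over all protein-coding genes the shares were 66.9%, 68.3% and 67.2%. All 3 lists had such a summit at 36 Hox genes (92.3%, 79.7 to 97.3%) against 60.2% of all genes. The shares over all genes lay below the intervals.

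All 11 Hoxa genes and all 9 Hoxd genes (Hoxd1, Hoxd3, Hoxd4 and Hoxd8 to Hoxd13) had a summit within 1 kb in every list. So did 8 of the 10 Hoxb genes, namely Hoxb1 and Hoxb3 to Hoxb9, and 8 of the 9 Hoxc genes, all but Hoxc6. By position in the cluster, 11 of 12 genes of groups 1 to 4, 11 of 11 of groups 5 to 8 and 15 of 16 of groups 9 to 13 had a REX1 summit, with RNF12 WT at 11, 11 and 16 and the mutant at 11, 10 and 16.

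The 3 exceptions were Hoxb2, Hoxb13 and Hoxc6. Hoxb2, a hindbrain gene, had no summit within 1 kb in any list, the nearest lying 1716 bp (REX1), 1125 bp (RNF12 WT) and 1610 bp (mutant) from a TSS. Hoxb13, the isolated posterior gene of its cluster, had RNF12 WT and mutant summits 55 and 56 bp from its TSS, but the nearest REX1 summit was 3917 bp away. Hoxc6 had REX1 and RNF12 WT summits 220 and 213 bp from a TSS, and its nearest mutant summit was 1072 bp away. Hoxb13 was the 1 gene at which RNF12 of both forms lay at the start and REX1 did not. Just inside the 1-kb limit were Hoxb4 for REX1 (893 bp) and the mutant (844 bp) and Hoxb1 for RNF12 WT (796 bp). Just outside were Hoxb2 for REX1 and RNF12 WT, and Hoxc6 for the mutant.

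The distance of the nearest summit varied from gene to gene, and at some genes between lists. These genes were chosen after their values were seen. At Hoxb9 the nearest summits lay 23 bp (REX1), 27 bp (RNF12 WT) and 1 bp (mutant) from a TSS, at Hoxc8 51, 28 and 12 bp, and at Hoxd13 54, 58 and 26 bp. At Hoxc11 all 3 were far, at 710, 771 and 668 bp. The nearest summits parted at Hoxa5, a gene of thoracic and lung development. REX1 and mutant summits lay at 30 and 36 bp and the nearest RNF12 WT summit at 720 bp. That RNF12 WT peak still overlapped a further REX1 peak and a further mutant peak in the gene. Hoxd9 was alike in distance, with 57 and 18 bp against 410 bp, and its RNF12 WT peak also overlapped peaks of both other lists. At Hoxa13, the posterior limb and genital gene, REX1 was the far one, at 652 bp, with RNF12 WT at 19 bp and the mutant at 87 bp. At Hoxd12 the REX1 summit was the close one, at 164 bp against 707 and 714 bp.

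**Figure D2:**
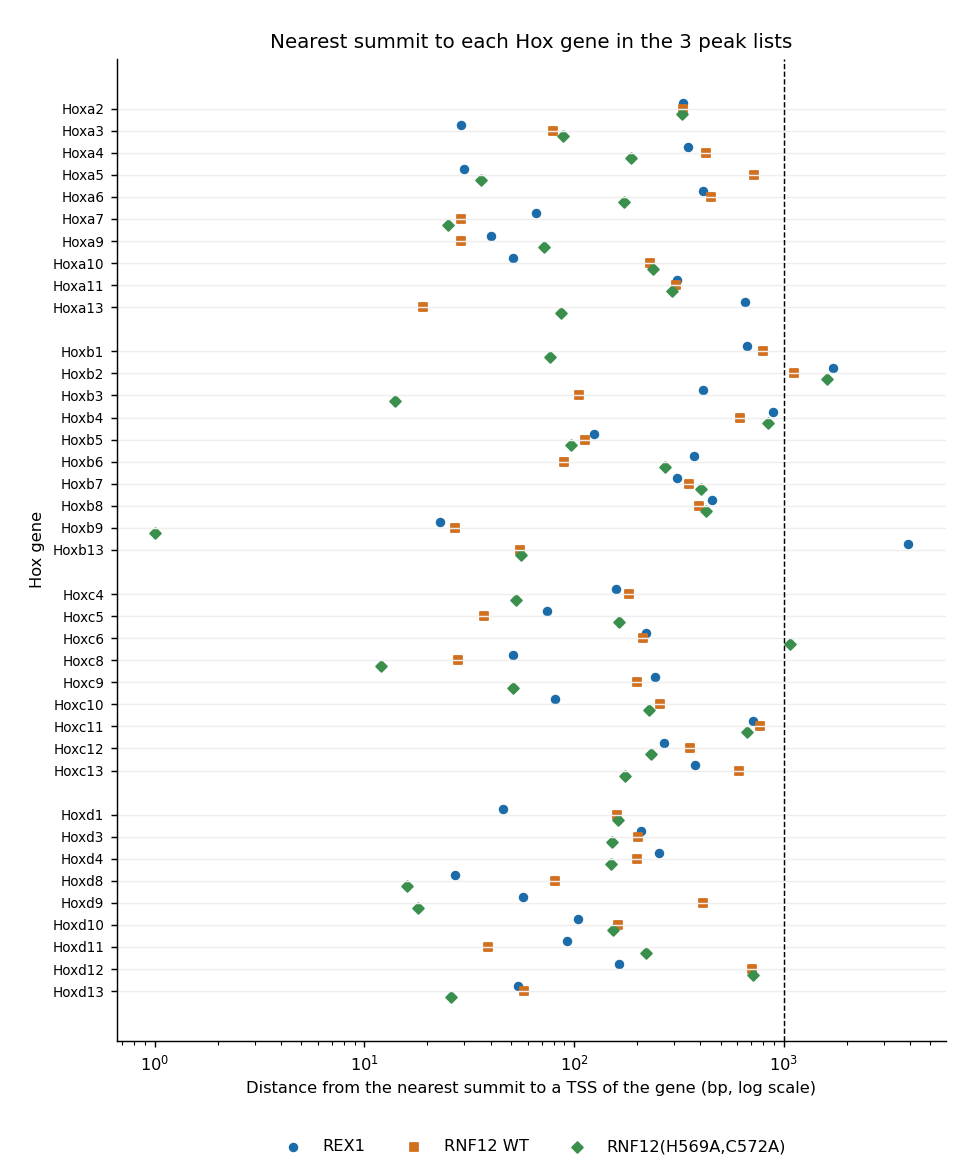
Distance in bp, on a log scale, from each Hox gene's nearest summit to the nearest of its TSSs in the 3 lists, 1 point per gene and list, with 1 gene left out. The dashed line is 1 kb, and only Hoxb2 in every list, Hoxb13 for REX1 and Hoxc6 for RNF12(H569A,C572A) lie beyond it.

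Several Hox genes met the limit at an alternative start. Hoxa9, Hoxb3, Hoxb8 and Hoxd4 had summits within 1 kb in every list, but at more than 1 kb from the start of their principal transcript. For Hoxa9 the nearest summits lay 40, 29 and 72 bp from some TSS, and 1483, 1585 and 1456 bp from the principal one. With 1 TSS per gene the counts were 30, 32 and 33 of 39, against 62.2%, 63.9% and 62.9% of all genes. The Hox genes had a median of 2 annotated TSSs, against 3 for all protein-coding genes.

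CpG content moved with these shares. A TSS was called CpG-rich where the 1 kb around it had at least 55% GC and an observed-to-expected CpG ratio of at least 0.6, and 25 of the 39 Hox genes had such a TSS. All 25 had a summit within 1 kb in each list (100%, 86.7 to 100%). The same held for 97.9%, 98.3% and 99.8% of all 10095 genes with a CpG-rich TSS, and 96.2% of those had one in all 3 lists. The Hox genes with a CpG-rich TSS and other genes of that kind could not be told apart by this count.

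The 14 Hox genes without a CpG-rich TSS, among them Hoxa2, Hoxa3, Hoxa5, Hoxb4, Hoxc4 and Hoxc10, gave another picture. A summit lay within 1 kb at 12 of 14 for REX1 (85.7%, 60.1 to 96.0%), 13 of 14 for RNF12 WT (92.9%, 68.5 to 98.7%) and 12 of 14 for the mutant (85.7%, 60.1 to 96.0%). Of all 11843 protein-coding genes without a CpG-rich TSS, the Hox genes included, 40.5%, 42.8% and 39.4% had one, below those intervals. This was a yes-or-no cut, and the genes on its lower side were not matched for CpG number. Whether the difference would remain with such matching was not tested.

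In bins of 1 kb, 34.7% of the 452 Hox bins held 30 or more CpGs, against 1.66% of the rest of the genome. Among bins with 50 or more CpGs, 81.1% of Hox bins (68.6 to 89.4%) and 84.4% of the rest held a REX1 summit. With 30 to 49 CpGs it was 52 of 104 Hox bins (40.6 to 59.4%) and 45.5% of the rest, with 20 to 29 CpGs 19.1% (11.5 to 30.0%) and 15.9%, and with 10 to 19 CpGs 5.10% (5 of 98 bins) and 4.39%. The rest of the genome lay inside the Wilson interval of each. In bins with under 10 CpGs, 5 of 129 Hox bins held a REX1 summit (3.88%, 1.67 to 8.75%) against 0.687%. For RNF12 WT it was 2 of 129 (1.55%, 0.426 to 5.48%) against 0.510%, and for the mutant 0 of 129 (up to 2.89%) against 0.55%, with the rest of the genome inside both intervals.

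For RNF12 WT the shares with 50 or more CpGs were 81.1% (68.6 to 89.4%) and 88.8%, and with 20 to 29 CpGs 17.6% (10.4 to 28.4%) and 18.4%. In the class of 30 to 49 CpGs the Hox share of 60.6% (51.0 to 69.4%) was above the 47.2% of the rest. For RNF12(H569A,C572A) the Hox share was below that of the rest in both of these middle classes. Hox bins with 30 to 49 CpGs held a summit in 52 of 104 (40.6 to 59.4%) against 66.3% elsewhere, and those with 20 to 29 CpGs in 8.82% (4.11 to 17.9%) against 22%, while bins with 50 or more did so in 90.6% (79.7 to 95.9%) against 88.3%. A share of bins cannot rise much where it is already high, so summits were also counted per 10 kb, which has no such limit. In the classes of 10 or more CpGs the Hox density was 0.946 to 1.29 times that of the rest for REX1, 0.941 to 1.33 times for RNF12 WT and 0.442 to 1.20 times for the mutant, lowest for the mutant in the class of 20 to 29 CpGs (1.03 against 2.33 per 10 kb). With under 10 CpGs it was 5.37 times for REX1, on 5 summits, and 2.95 times for RNF12 WT, on 2. Bins were also split only into CpG-rich ones and others, by the criteria used for TSSs. CpG-rich Hox bins held a summit in 82.2% (68.7 to 90.7%), 80.0% (66.2 to 89.1%) and 91.1% (79.3 to 96.5%) against 86.8%, 90.6% and 89.5% elsewhere. For RNF12 WT the rest thus lay above the Hox interval. Hox bins that were not CpG-rich did in 19.9% (16.3 to 24.1%), 21.9% (18.1 to 26.1%) and 16.7% (13.4 to 20.6%) against 2.68%, 2.69% and 2.89%. Bins that were not CpG-rich thus kept a large difference in this coarser split.

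**Figure D3:**
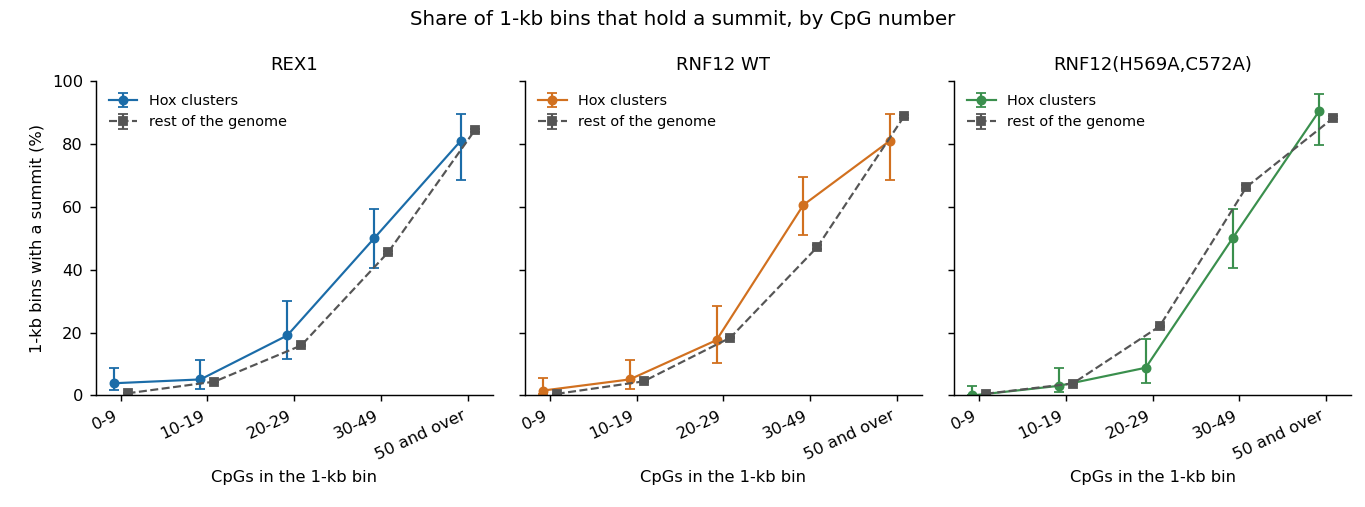
Share of 1-kb bins that hold a summit (%), by the number of CpGs in the bin, for the 3 lists. Circles and solid lines are bins in the Hox clusters and their 5-kb margins, squares and dashed lines the rest of the genome, and bars 95% Wilson intervals. The lines of Hox and rest run close together, with some exceptions. Hox bins of 20 to 49 CpGs are lower in the mutant list, and those of 30 to 49 are higher for RNF12 WT. Those under 10 are higher for REX1 (3.88% against 0.687%).

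The strongest peaks gave a further difference between the lists. With only the 20000 peaks of highest -log10 q, 14 Hox genes kept a REX1 summit within 1 kb (35.9%, 22.7 to 51.6%), 23 an RNF12 WT summit (59.0%, 43.4 to 72.9%) and 5 a mutant summit (12.8%, 5.60 to 26.7%). The shares over all genes were 35.0%, 40.0% and 28.1%. RNF12 WT thus stood above the background at the Hox genes and the mutant below it, with REX1 close to it. The 5 mutant genes were Hoxa11, Hoxb9, Hoxc5, Hoxc13 and Hoxd13. Of these, 4 were in groups 9 to 13, which hold 16 of the 39 Hox genes, and 5 genes are too few to compare groups.

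Among Hox genes with a CpG-rich TSS the same strongest peaks marked 13 of 25 for REX1 (52.0%, 33.5 to 70.0%), 13 of 25 for RNF12 WT (52.0%, 33.5 to 70.0%) and 4 of 25 for the mutant (16.0%, 6.40 to 34.7%). All genes with a CpG-rich TSS gave 57.5%, 65.5% and 53.9%. A mutant summit was therefore present at all 25 genes, but among the 20000 strongest at few of them. The 20000 peaks began at a -log10 q of 9.62, 6.84 and 23.1, so the mutant list had more peaks of high significance, and the depth of the libraries behind this is unknown here.

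**Figure D4:**
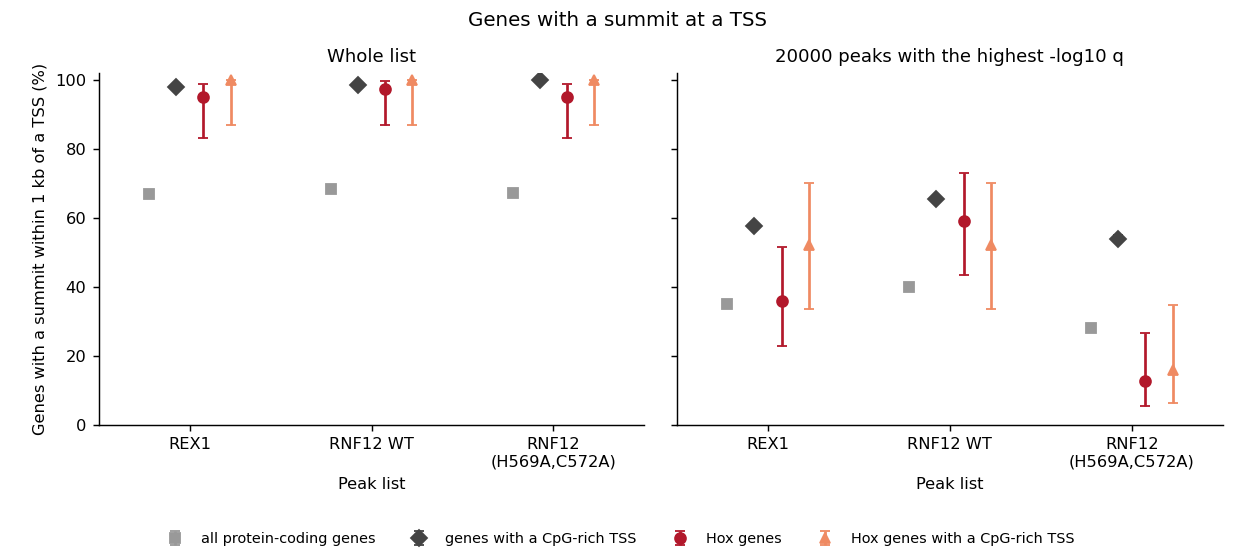
Share of genes with a summit within 1 kb of a TSS (%), for the whole lists on the left and for the 20000 peaks of highest -log10 q on the right. Squares are all protein-coding genes, diamonds those with a CpG-rich TSS, circles the 39 Hox genes and triangles the 25 Hox genes with a CpG-rich TSS, with 95% Wilson intervals. On the right the mutant list marks 5 Hox genes, below the 28.1% of all genes.

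Of the REX1, RNF12 WT and mutant peaks there, 63.4%, 67.2% and 71.8% had a summit within 1 kb of a TSS of any gene, against 47.3%, 48.6% and 46.8% of peaks chosen in the same way, in or within 5 kb of any protein-coding gene. The Hox clusters are dense in starts, and this was not adjusted for. Within that kilobase, however, only 22.5% (15.5 to 31.6%), 28.9% (21.6 to 37.6%) and 27.1% (19.6 to 36.2%) lay within 150 bp of the TSS, against 45.6%, 46.2% and 51.0% over all peaks. For the 25 Hox genes with a CpG-rich TSS the median distance of the nearest summit was 209, 197 and 153 bp, where all such genes gave 54.0, 57.0 and 60.0 bp. The Hox summits within that distance were thus less tightly at the start. Neither the number of annotated TSSs nor that of summits per gene was adjusted for.

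Summits fell in a coding exon in 26.7% (20.5 to 34.0%), 32.8% (26.3 to 39.9%) and 32.2% (25.2 to 40.1%) of the peaks, against 16.6%, 23.6% and 20.6% of peaks in or within 5 kb of any protein-coding gene. The length of coding sequence in these spans was not adjusted for. The homeobox, the 60 codons that encode the DNA-binding homeodomain, makes up 19.7% of the Hox coding bases. It held 6 of 43 coding summits for REX1, 6 of 59 for RNF12 WT and 4 of 48 for the mutant. Hoxa3 was the 1 gene with a homeobox summit in every list. Intergenic summits made up 14.9% (10.2 to 21.2%), 12.2% (8.21 to 17.8%) and 17.4% (12.2 to 24.3%), and the 14.7%, 12% and 13.5% of peaks chosen in the same way lay inside these intervals. Repeat-masked bases lay within 50 bp of 21.7% (16.1 to 28.7%), 23.3% (17.8 to 30.0%) and 24.2% (18 to 31.6%) of the summits, against 29.8%, 26.3% and 43.7% of peaks so chosen.

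The 3 lists met at the same places more often at the Hox genes than over their whole length. The background here was all peaks of a list, and overlap among peaks near any protein-coding gene was not computed. The higher density of peaks at the Hox genes was not adjusted for. Of REX1 peaks at the Hox genes, 57.1% (49.4 to 64.5%) overlapped an RNF12 WT peak by at least 1 bp and 57.8% (50 to 65.1%) a mutant peak, against 39.5% and 40.7% of all REX1 peaks. Of RNF12 WT peaks, 55.6% (48.3 to 62.6%) overlapped REX1 and 68.9% (61.8 to 75.2%) the mutant, against 41.2% and 51.9%. Of mutant peaks, 60.4% (52.4 to 67.9%) overlapped REX1 and 73.8% (66.2 to 80.2%) RNF12 WT, against 34.2% and 42.6%.

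Joined where they overlapped, the 490 peaks at the Hox genes made 240 sites. All 3 lists shared 68 of them (28.3%, 23.0 to 34.3%), against 13% of 188566 sites genome-wide. REX1 alone held 50 sites (20.8%, 16.2 to 26.4%, against 25.6%) and RNF12 WT alone 38 (15.8%, 11.8 to 21%, against 20.1%), with the genome-wide share inside both intervals. The mutant alone held 21 (8.75%, 5.79 to 13%, against 25.7%). Both RNF12 forms without REX1 held 32 sites (13.3%, 9.61 to 18.2%, against 7.84%). REX1 with RNF12 WT alone held 16 (6.67%, 4.14 to 10.6%, against 4.25%) and REX1 with the mutant alone 15 (6.25%, 3.82 to 10.1%, against 3.51%). By cluster, 19 of 78 Hoxa, 18 of 49 Hoxb, 16 of 53 Hoxc and 15 of 60 Hoxd sites were in all 3 lists. Sites of REX1 alone were 17 of the 78 in Hoxa, 7 of 49 in Hoxb, 14 of 53 in Hoxc and 12 of 60 in Hoxd.

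Base composition moved with the overlap too. Summits whose 250 bp to either side met the CpG-rich criteria made up 46.6%, 53.3% and 65.8% of the peaks at the Hox genes, against 23.8%, 27.4% and 23.6% of all peaks. Among CpG-rich peaks alone, 77.3% (66.7 to 85.3%) of the REX1 peaks at the Hox genes were in all 3 lists, against 80.8% of all. For RNF12 WT this was 64.6% (54.6 to 73.4%) against 73.5%, and for the mutant 54.1% (44.2 to 63.6%) against 69.1%. The larger share of shared peaks at the Hox genes was thus not seen among CpG-rich peaks. Of the other peaks, 37.3% (25.3 to 51.0%) of the mutant peaks at the Hox genes were in all 3 lists, against 13.4% of all. For REX1 (18.6%, 11.8 to 28.1%, against 14.7%) and RNF12 WT (23.8%, 16.0 to 33.9%, against 16.3%) the genome-wide value lay inside the interval. Among CpG-rich peaks the overlap with REX1 was lower at the Hox genes for RNF12 WT (65.6%, 55.7 to 74.4%, against 76.0%) and for the mutant (66.3%, 56.5 to 74.9%, against 77.2%). That of REX1 with RNF12 WT (80.0%, 69.6 to 87.5%, against 83.1%), of REX1 with the mutant (90.7%, 82.0 to 95.4%, against 94.5%), of RNF12 WT with the mutant (93.8%, 87.0 to 97.1%, against 95.2%) and of the mutant with RNF12 WT (77.6%, 68.3 to 84.7%, against 83.0%) had the genome-wide share inside the interval. The pairwise overlaps of the other peaks were higher at the Hox genes for REX1 with RNF12 WT (37.2%, 27.7 to 47.8%, against 25.9%), for RNF12 WT with REX1 (44.0%, 33.9 to 54.7%, against 28.2%) and for the mutant with REX1 (49%, 35.9 to 62.3%, against 21.1%) and with RNF12 WT (66.7%, 53.0 to 78%, against 30.2%). Those of REX1 with the mutant (29.1%, 20.5 to 39.4%, against 23.9%) and of RNF12 WT with the mutant (40.5%, 30.6 to 51.2%, against 35.5%) had the genome-wide share inside the interval.

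ATGGCNGC lay near 14 of 161 REX1 summits at the Hox genes (8.70%, 5.25 to 14.1%), close to the 8.28% of all REX1 peaks. The 14 had a median fold enrichment of 7.78 (2.59 to 13.9), where the 147 others had 4.59. Over all REX1 peaks the medians were 5.60 with the word and 4.45 without. For RNF12 WT 6 of 180 peaks held it (3.33%, 1.54 to 7.08%, against 3.18%), with a median fold enrichment of 5.00 against 4.79 without. In the mutant list it was 8 of 149 (5.37%, 2.75 to 10.2%, against 2.27%), with 8.58 against 7.23. Of mutant peaks within 1 kb of a TSS 4.45% held it, and of CpG-rich ones 4.26%, both inside that interval. Of the 14 REX1 peaks with the word, 6 were in all 3 lists and 6 in no other list, beside 46.0% and 31.1% of all REX1 peaks at the Hox genes. The 5 strongest, at the Hoxb3os start, Hoxa7, Hoxc5, Hoxb5 and Hoxd11, were among the 6 in all lists, and the next 2, both in Hoxa3, were not.

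The 451.7 kb held 66 instances of ATGGCNGC, 1.46 per 10 kb against 0.979 over the genome. A REX1 summit lay within 50 bp of 16 of them (24.2%, 15.5 to 35.8%), against 3.26% of all instances. REX1 peaks themselves were denser there, at 3.56 per 10 kb against 0.352 over the genome, a larger ratio than that of these shares. For RNF12 WT it was 7 (10.6%, against 1.31%) and for the mutant 9 (13.6%, against 0.947%), beside peak densities of 3.99 against 0.358 and 3.30 against 0.359 per 10 kb. For RNF12 WT the ratio of densities was again the larger, and for the mutant the ratio of shares was. AAGATGGC was scarce in the clusters, with 14 instances or 0.310 per 10 kb against 0.904. None had a REX1 summit within 50 bp, and 0 of 161 REX1 peaks at the Hox genes held the word (up to 2.33%), where 5.67% of all REX1 peaks did, and 2.79% of those within 1 kb of a TSS. A match shows the letters only.

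The 1 peak at the Hox genes with AAGATGGC within 50 bp of the summit was an RNF12 WT peak in the overlapping genes Hoxc5 and Hoxc6, 953 bp upstream of a Hoxc6 TSS, chr15:102999303-102999790, with a fold enrichment of 7.44. It overlapped peaks of both other lists, and is shown because it is the only one, in 151 bases around the summit with the word in capitals.
Hoxc6 upstream, chr15:102999501-102999651, minus strand: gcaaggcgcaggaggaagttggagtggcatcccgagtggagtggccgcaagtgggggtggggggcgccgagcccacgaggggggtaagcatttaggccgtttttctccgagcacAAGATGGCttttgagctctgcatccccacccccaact

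**Figure D5:**
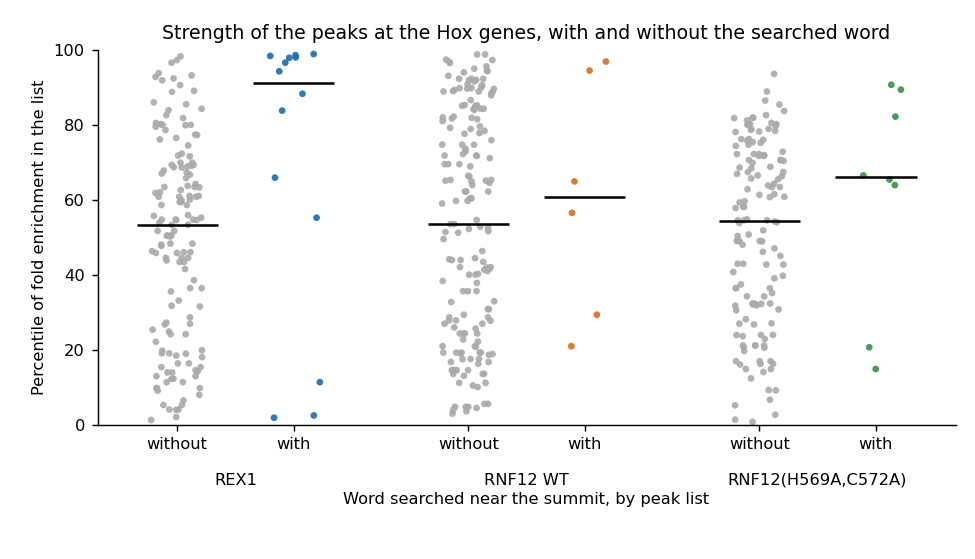
Percentile of fold enrichment within the list for the peaks at the Hox genes, with or without the word ATGGCNGC within 50 bp of the summit. Each point is 1 peak, black bars are medians and the spread along x is only for legibility. For REX1 the 14 peaks with the word lie mostly high, and 3 of them lie at the 11.4th percentile or below.

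Genes around and related to the clusters were read with the same rule. Of 13 neighbours of the clusters found in the annotation, 12 had a REX1 summit within 1 kb of a TSS, 12 an RNF12 WT summit and 11 a mutant summit. These are 92.3% (66.7 to 98.6%), 92.3% (66.7 to 98.6%) and 84.6% (57.8 to 95.7%), and the 66.9%, 68.3% and 67.2% of all protein-coding genes lay inside all 3 intervals. The homeobox genes Evx1 and Evx2, beside Hoxa13 and Hoxd13, had one in every list, with REX1 summits 55 and 369 bp away. The nearest summit was farther away at Ttll6 for REX1 (2914 bp), at Skap1 for RNF12 WT (4392 bp), and at Calcoco2 and Smug1 for the mutant (12552 and 2017 bp). Of the 9 genes of the HOX cofactors of the Pbx, Meis and Pknox families, which bind DNA together with HOX proteins, 8, 9 and 9 had a summit, with lower bounds of 56.5%, 70.1% and 70.1%. All 6 ParaHox genes, the sister group that holds Gsx1, Pdx1 and Cdx2, had a summit in every list, with a lower bound of 61% that lies below the share of all genes.

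Of 43 non-coding genes that start inside the clusters, 26 had a REX1 summit within 1 kb, 24 an RNF12 WT summit and 21 a mutant summit (60.5%, 55.8% and 48.8%). The share over all non-coding genes was not computed, and those of protein-coding genes, 66.9%, 68.3% and 67.2%, lay inside the interval for REX1 (45.6 to 73.6%) and RNF12 WT (41.1 to 69.6%) and above it for the mutant (34.6 to 63.2%). Hotairm1, Hoxa11os, Hoxb3os, Hoxb5os, Haglr and the microRNA genes Mir196b and Mir615 had one in all 3 lists, with summits of Mir196b 74, 85 and 42 bp away. Hotair, the long non-coding RNA between Hoxc11 and Hoxc12, had a REX1 summit at 255 bp, while the nearest RNF12 WT and mutant summits lay 3076 and 4290 bp away. Mir10a and Mir196a-1 had none in any list, and Mir10b had REX1 and RNF12 WT summits at 558 and 568 bp and a mutant summit at 1524 bp. Many of these starts lie within 1 kb of a Hox TSS and share its summits.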

How the data were processed

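The deposited files were 3 narrowPeak lists, 1 per immunoprecipitated library, and no list was used for the 2 control libraries. Per the authors' methods and the submitters' processing notes, reads were trimmed with Trim Galore 0.6.7, aligned with Bowtie2 2.5.0 to mm10 with the 129/Sv and Cast/Ei variants masked, merged with SAMtools 1.10, and peaks were called with MACS2 2.2.7.1 in narrow mode at default settings. The authors deposited a fold enrichment (a ratio over local background), -log10 p and q values, the summit offset and a display score, the last not used. Per the labels, 1 control library belonged to REX1 and 1 to RNF12, while the methods do not state which control entered the calling of each list. The depth of the libraries is not given in the sources used here, so its part in the number of peaks is unknown. The lowest -log10 q was 1.31 in each list.

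Summits were placed at the deposited start plus the offset, on chromosomes named and sized as in GRCm38, and assigned with GENCODE M21 (Python 3.11.15, pandas 2.3.3, NumPy 2.4.6). A gene counted where a summit lay within 1000 bp of any of its annotated TSSs, and a peak where its summit lay in a Hox gene or within 5000 bp. Peaks overlapped at 1 bp or more. Words were searched on both strands within 50 bp of the summit in the RefSeq GRCm38.p6 sequence. Soft-masked bases of that sequence were taken as repeats. With 1 library per list there was no test between lists, and shares have 95% Wilson intervals. The functions were tested on simulated peaks.

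The members, gene lists and words were chosen with earlier results of these data known. The comparisons by CpG number and base composition and with peaks around any protein-coding gene, the joined sites and the strongest peaks of CpG-rich genes were added after values had been seen. The rule was to name all Hox genes with a summit within 1 kb in any list, in each list the 3 peaks of highest fold enrichment and the highest of each cluster, and the 12 strongest REX1 peaks found in all 3 lists. The other gene lists were counted, with members named where they had a summit within 1 kb. Those that missed the limit, and other peaks singled out in the text, were named after their values were seen. 1 neighbour listed, Prac1, was not matched. Some items this rule would name are not reported here.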

Additional observations from a re-analysis of the deposited data

How the results depend on the processing

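In all, 78 alternatives were computed for 21 results. Of these, 36 stayed within the limits set for a like value and 42 moved past them. Where a value is given per list, REX1 comes first, RNF12 WT second and the mutant last. With only the 20000 peaks of highest -log10 q, 14, 23 and 5 Hox genes had a summit within 1 kb. The share of all protein-coding genes was then 35.0%, 40.0% and 28.1%. Of the 161, 180 and 149 peaks at the Hox genes 29, 51 and 6 remained, where 20000 remained of 96050, 97602 and 98124 in all. The Hox share, above that of all genes in the whole lists, was then 35.9% and close to it for REX1, and 12.8% and below it for the mutant. With a -log10 q of at least 5, 96 REX1 and 89 RNF12 WT peaks remained there, and the share of all genes was 56.8%, 55.7% and 64.8%. That share was 64.1%, 65.8% and 64.6% within 500 bp, 70.9%, 72.3% and 71.7% within 3 kb, 65.1%, 66.8% and 65.9% with TSSs of protein-coding transcripts only, and 62.2%, 63.9% and 62.9% with 1 TSS per gene.

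The overlaps at the Hox genes also moved with the rule, and those of all peaks under these rules were not computed. Where each peak had to share at least 50% of its length, 28.6% of REX1 peaks met RNF12 WT and 30.4% the mutant, 25.6% of RNF12 WT peaks met REX1 and 38.9% the mutant, and 32.9% of mutant peaks met REX1 and 47% RNF12 WT. With summits within 100 bp these were 38.5% and 34.2%, 35.6% and 48.3%, and 36.9% and 57.7%. With a -log10 q of at least 5 in both lists, 35.4% of REX1 peaks met RNF12 WT, 41.6% of RNF12 WT peaks met REX1, and 43.4% and 44.2% of mutant peaks met REX1 and RNF12 WT. The overlaps with the mutant, 58.3% of REX1 and 66.3% of RNF12 WT peaks, stayed within their limits under that rule. The cause of these moves, beyond the smaller number of peaks or the stricter rule itself, was not tested. The shares of peaks with either word stayed within their limits.

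No paired analysis was possible because each list came from 1 library and no result came from a test between samples. Depth is unknown, so a gene without a summit is one where no peak was called, not one shown to lack the protein.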
